A study of Mus musculus with 27 samples.

Results

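The 52 genes described here encode the machinery of DNA replication and of S phase, from origin licensing to the supply of deoxynucleotides. They were chosen by gene symbol, with earlier results of these data known, and all 52 were found among the 19392 genes of the expression table. RNA-Seq was performed on left kidneys of C57BL/6 mice, with 27 kidneys in 9 groups of 3. Part of the left kidney was fixed for histology, and which part gave the RNA was not stated. In the clamped groups the right kidney was removed. The pedicle of the left kidney was clamped for 16, 18, 20, 22, 24, 26, 28 or 30 min on a heated platform. The 0 min group was labelled sham. The study lists 0 min among the times of this model, but whether the right kidney of these mice was removed was not stated. If it was not, effects of its removal and of the clamp cannot be told apart in comparisons with 0 min. Kidneys were collected after 24 h of reperfusion, and the mice carried no transgene or allele named in the labels. Age and sex were not given in the sources used here. In bulk kidney tissue, a change in the number of cells of a type and a change of RNA per cell cannot be told apart.

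Before a cell copies its DNA, the origin recognition complex with Cdc6 and Cdt1 loads the MCM helicase onto origins, and geminin (Gmnn) blocks a second loading. In S phase, the kinases Cdk2 with cyclin E and Cdc7 with Dbf4 switch the helicase on with the help of Cdc45 and the GINS complex, and polymerases α, δ and ε then copy the strands with the sliding clamp Pcna. Cells of the adult kidney rarely divide, and tubule cells that survive an injury re-enter the cell cycle to replace lost neighbours. Many replication genes are switched on by E2F transcription factors once the RB protein is inactivated.

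Promoter sequences are shown for 4 members, since the genes moved together and these stretches hold letters of the E2F consensus. In RefSeq promoters of GRCm38.p6, which run from 250 bases before to 50 bases after a transcription start, 43 of the 52 members had 51 entries. The E2F letters TTTCCCGC, TTTCGCGC, TTTGCCGC and TTTGGCGC, searched on both strands, were in 17 of these 51 promoters (33.3%) and in 3.19% of the 18975 promoters of genes in the expression table. The CCAAT box (CCAAT, both strands) was in 52.9% of the member promoters against 37.5%. The letters TTTGAA of the CHR element, which is typical of mitotic genes, were in 15.7% against 13.9%. A match of letters is a description and not a binding site. Printed are the 160 bases just before the RefSeq start, 5′ to 3′ on the gene's strand, of Mcm5 (chr8:75109349-75109508, plus strand), Mcm6 (chr1:128359706-128359865, minus strand), Pola1 (chrX:93632156-93632315, minus strand) and Cdk2 (chr10:128705052-128705211, minus strand). Capitals mark the E2F letters and the CCAAT boxes, on either strand. In Mcm5 and Mcm6, E2F letters of both strands overlap in 1 run of capitals.
Mcm5: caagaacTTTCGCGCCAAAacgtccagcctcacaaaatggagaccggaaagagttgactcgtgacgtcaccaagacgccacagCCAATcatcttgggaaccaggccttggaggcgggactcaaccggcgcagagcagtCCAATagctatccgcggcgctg
Mcm6: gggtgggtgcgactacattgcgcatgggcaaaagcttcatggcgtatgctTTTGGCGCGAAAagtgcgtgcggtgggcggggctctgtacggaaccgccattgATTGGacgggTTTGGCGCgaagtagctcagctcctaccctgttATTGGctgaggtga
Pola1: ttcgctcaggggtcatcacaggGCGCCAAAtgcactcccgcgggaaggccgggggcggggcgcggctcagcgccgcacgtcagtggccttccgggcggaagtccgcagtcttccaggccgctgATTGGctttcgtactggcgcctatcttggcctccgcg
Cdk2: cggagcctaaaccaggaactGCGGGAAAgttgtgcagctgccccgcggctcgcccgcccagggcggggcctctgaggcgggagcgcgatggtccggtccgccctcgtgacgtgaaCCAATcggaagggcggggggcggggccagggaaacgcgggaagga
The 16 members with E2F letters in a promoter had a median log2 fold change of 1.56 at 28 min against 0 min, the 27 members with an entry but without these letters had one of 1.34, and the 9 members with no entry had one of 1.56. Between 28 and 30 min the medians were -0.92, -0.65 and -0.98 in the same order. These medians describe the members and were not tested.

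Expression was deposited in FPKM, a fragment count scaled to transcript length and library size, and the read counts and the depth behind these values are unknown. All 52 members were at 1 FPKM or more in at least 3 kidneys, and none was at 0 in any kidney. Levels and differences were tested in limma on log2(FPKM + 1) after quantile normalization. A DEG had a log2 fold change beyond 1 on either side and an adjusted p-value (Benjamini-Hochberg, over the 18188 genes tested) below 0.05. Adding 1 FPKM makes the fold changes of weakly expressed genes too small. The kidney markers were high at 0 min, where the 9 proximal tubule markers summed to between 5560 and 6130 FPKM, and they summed to between 1260 and 1500 FPKM at 30 min. The 5 injured tubule markers, among them Havcr1 and Lcn2, summed to between 15.8 and 90.1 FPKM at 0 min, 2140 and 2260 at 28 min, and 2520 and 4920 at 30 min. The 9 immune cell markers summed to between 26.2 and 29.1 FPKM at 0 min, 40.3 and 50.4 at 28 min, and 54.5 and 59.7 at 30 min, and the T cell marker Cd3e was at 0 in 7 kidneys. Within this sum the macrophage marker Cd68 went from 3.04, 3.61 and 3.48 FPKM at 0 min to 26.0, 25.1 and 22.0 FPKM at 28 min, while Csf1r went from 18.3, 13.7 and 15.3 to 6.45, 5.23 and 5.10 FPKM, and the pan-leukocyte marker Ptprc was between 1.24 and 1.80 FPKM at 0 min and between 1.22 and 1.73 at 28 min. The 4 fibroblast and pericyte markers averaged 2.50 in log2(FPKM + 1) at 0 min, between 3.99 and 4.65 from 16 to 26 min, 3.97 at 28 min and 3.62 at 30 min. The 5 markers of the loop, distal tubule and collecting duct averaged 8.32 at 0 min, 6.71 at 28 min and 7.19 at 30 min, and from 28 to 30 min the endothelial markers went from 3.80 to 4.44 and the podocyte markers from 3.92 to 4.38. The part of these markers in the results on replication genes was not tested. Replicates were different mice.

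The mean level of the replication genes was lowest at 0 min and highest at 28 min, where all 52 members were above 0 min by the adjusted p in limma. That number was 28 at 16 min and 29 at 30 min. Averaged over the 52 genes, the level in log2(FPKM + 1) was 2.44 ± 0.17 (SD, n = 3) at 0 min and 3.22 ± 0.38 at 16 min. Between 18 and 26 min the group means lay between 3.42 and 3.68. The level was 3.97 ± 0.10 at 28 min and 3.15 ± 0.29 at 30 min (SD, n = 3 each). At 28 min the 3 kidneys lay at 3.86, 4.04 and 4.02, above the other 24 kidneys. For 48 of the 52 members the highest group mean was at 28 min, with Rpa1 and Rrm2 highest at 26 min and Rfc2 and Dbf4 at 18 min. The 0 min group was the lowest for 51 members, the exception being Rfc2, which was lowest at 30 min.

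**Figure D1:**
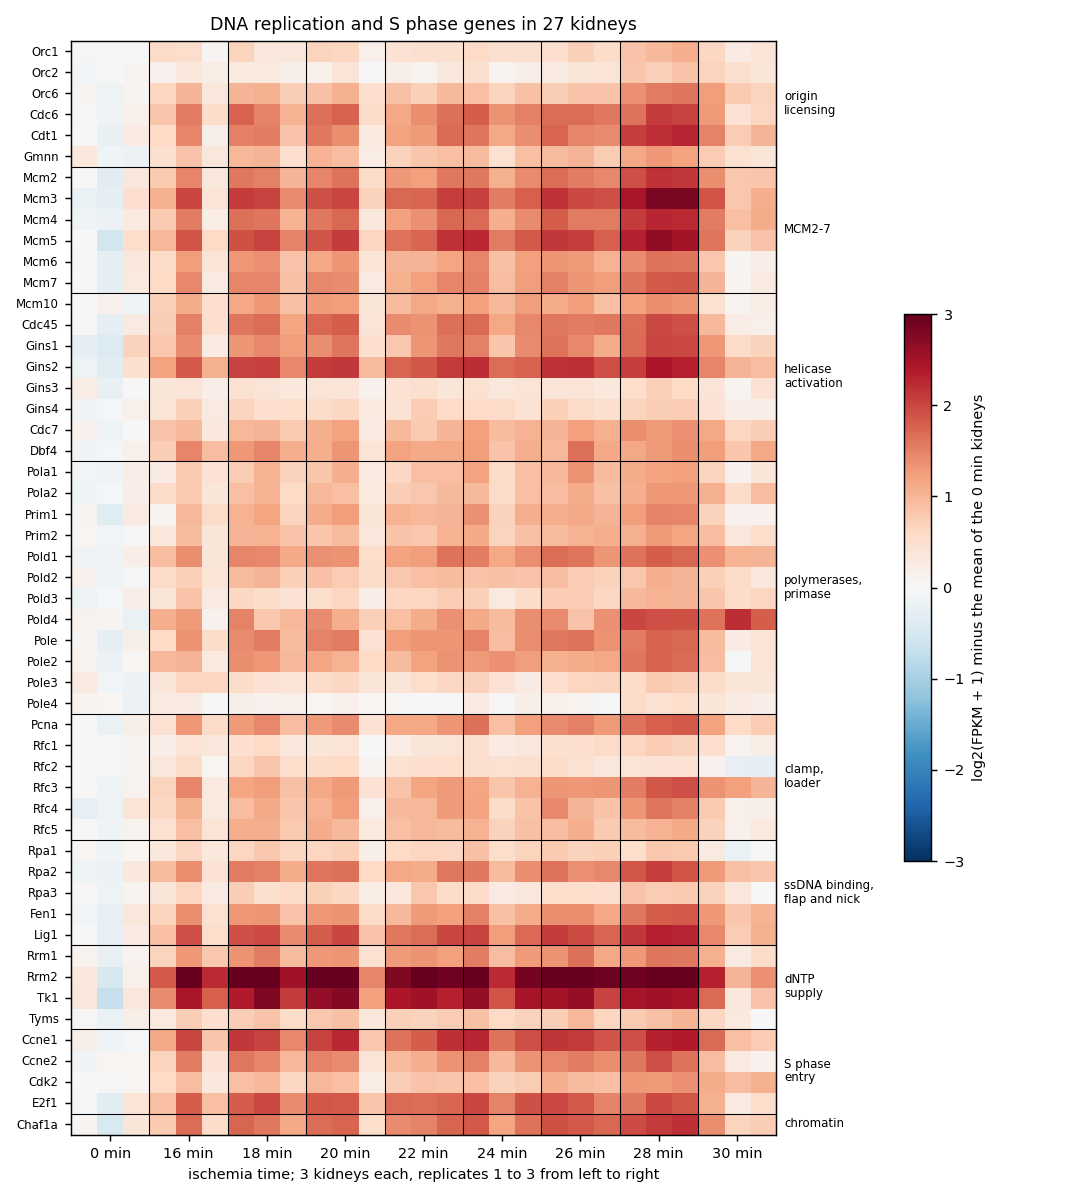
Heat map of the 52 replication genes (rows, by role) in 27 kidneys (columns, by ischemia time in min, replicates 1 to 3 from left to right). The colour is log2(FPKM + 1) minus the mean of the 0 min kidneys and stops at 3 on either side. For 48 of the 52 rows the highest group mean is at 28 min, and Rrm2 has its highest group mean at 26 min.

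Against the 0 min group, the number of DEGs among the 52 members was 8, 27, 16, 26, 26, 28, 38 and 8 in order of ischemia time from 16 to 30 min, and every one of them was higher. In the same order, the share of all genes called higher was 1.28%, 1.97%, 1.55%, 2.09%, 1.97%, 2.16%, 4.27% and 5.14%. By the adjusted p alone, 28, 49, 47, 49, 48, 49, 52 and 29 members were higher, against 9.43%, 12.6%, 10.7%, 13.4%, 13.6%, 14.9%, 24.5% and 26.9% of all genes. The share of all genes called as DEGs was greatest after 30 min, while the members' count was greatest after 28 min. The median log2 fold change of the members was 0.64 after 16 min and 1.02 after 18 min, and it was 1.39 after 28 min and 0.50 after 30 min, while that of all genes was between -0.01 and 0. In fits of 2 groups only, 0 members were DEGs at 16 min (lowest adjusted p of a member 0.062 in limma), and with a pseudocount of 0.1 FPKM the 30 min count was 18. These 8 comparisons share the same 0 min kidneys. Rrm2, Mcm3, Gins2 and Ccne1 were DEGs at all 8 times. A further 12 members were DEGs at each time from 18 to 28 min, namely Mcm2, Mcm4, Mcm5, Cdc6, Cdc45, Gins1, Pole, Rpa2, Lig1, Tk1, E2f1 and Chaf1a. Gmnn, Orc6, Mcm10, Pola1, Pola2, Prim1, Prim2, Rfc4 and Cdk2 were DEGs at 28 min and at no time from 16 to 26 min. The 14 members that were a DEG at no time were Orc1, Orc2, Gins3, Gins4, Pold2, Pold3, Pole3, Pole4, Rfc1, Rfc2, Rfc5, Rpa1, Rpa3 and Tyms. All 14 were higher at 28 min than at 0 min with adjusted p-values in limma of at most 0.039, on fold changes under the DEG limit. For the weakly expressed Orc1 that fold change is shrunk by the added 1 FPKM, and its ratio of group means was 8.28.

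**Figure D2:**
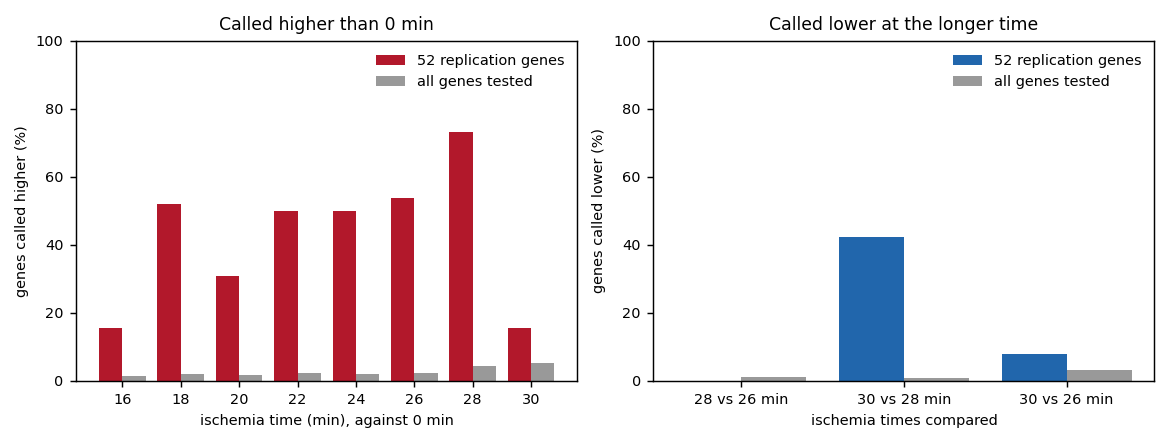
Percent of genes called DEGs, for the 52 replication genes (coloured bars) and all 18188 genes tested (grey bars). Left, higher than at 0 min, by ischemia time in min. Right, lower at the longer of 2 ischemia times, where 0 replication genes were called from 26 to 28 min, 22 from 28 to 30 min and 4 from 26 to 30 min.

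The step from 28 to 30 min was downward for nearly all members, with the smallest change in Pold4. Of the 52 members, 22 were DEGs lower at 30 min than at 28 min and 0 were higher, and 0.649% of all genes were called lower. The fitted change was below 0 for 52 of 52 members, with that of Pold4 rounding to 0.00, and for 49.3% of all genes. The median log2 fold change was -0.81. By the adjusted p alone 39 members were lower, against 6.77% of all genes. The 3 kidneys at 30 min were below the 3 at 28 min for 50 members, against 16.4% of all genes whose groups separated downward. For Pold4 and Dbf4 these groups overlapped. All 22 genes that fell had also been DEGs at 28 min against 0 min. When only the 28 and 30 min groups were fitted, 0 genes of the table were DEGs, although 49 members had an unadjusted p under 0.05 in limma (24.5% of all genes), all 52 were lower, and the lowest adjusted p of a member was 0.052. Leaving out 1 kidney gave 7 DEGs without 30 min replicate 3, 8 without 30 min replicate 2, 11 without 28 min replicate 2, 13 without 28 min replicate 3 and 26 without 30 min replicate 1. Among the named genes, the falls of Cdt1, Cdc6, Mcm3, Lig1, Rrm2, Ccne1 and Chaf1a missed the DEG limits when any of 28 min replicates 2 and 3 or 30 min replicates 2 and 3 was left out, the fall of Tk1 without 30 min replicate 2 or 3, and those of Gins2 and Rfc4 without 30 min replicate 3, with adjusted p-values in limma from 0.053 to 0.18. The falls of Mcm6, Cdc45, Pole2 and Ccne2 passed without any 1 kidney. From 28 to 30 min, 4 of the 9 proximal tubule markers were DEGs that fell, with a median log2 fold change of -0.77 over the 9, and 0 of the 9 immune markers were DEGs, with a median of 0.23. Their part in the counts of replication genes was not tested.

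From 26 to 28 min no member was a DEG, against 0.44% of all genes called higher and 1.06% called lower. The change was above 0 for 49 members (51.1% of all genes), and 7 passed the adjusted p alone in limma, against 10.8% of all genes. These were Orc1, Orc2, Orc6, Gins3, Pold4, Pole2 and Pole4, with log2 fold changes from 0.28 to 0.73. From 26 to 30 min, 4 members fell, against 3.13% of all genes, namely Cdc45, Rrm2, Tk1 and E2f1, with log2 fold changes of -1.08, -1.53, -1.42 and -1.13. By the adjusted p alone 26 members were lower (16.8% of all genes) and 2, Pold4 and Pole4, were higher (20.5%). The count of 4 was 14 without 30 min replicate 1, 7 without 26 min replicate 3 and 2 without 30 min replicate 2. Within 16 to 26 min, 0 members and 0% of all genes were DEGs in limma between neighbouring times, where 8 members had an unadjusted p under 0.05 at 18 against 16 min (5.37% of all genes) and 1 at 20 against 18 min (2.83%). No member had a slope on ischemia time that passed the adjusted p, against 0.0055% of all genes in each direction, and 16 members had one at an unadjusted p under 0.05 (8.32% of all genes).

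Among the 6 genes of origin recognition and licensing, 4 were DEGs at 28 min and 0 at 30 min against 0 min, and 2 fell from 28 to 30 min. Cdt1 (chr8:122568015-122573554, plus strand), which loads the helicase with Cdc6, was at 4.87, 4.01 and 5.92 FPKM at 0 min, between 5.63 and 18.8 FPKM with a median of 14.6 in the 18 kidneys at 16 to 26 min, 23.8, 26.1 and 27.7 FPKM at 28 min, and 15.5, 9.04 and 10.9 FPKM at 30 min. The 28 min kidneys exceeded all others, and the 30 min kidneys lay between the 0 and 28 min groups without overlap. Its log2 fold change in limma was 2.03 ± 0.30 (SE, adjusted p = 1.4e-05) at 28 min against 0 min and -1.06 ± 0.30 (adjusted p = 0.025) at 30 min against 28 min. Cdc6 was nearly silent at 0 min with 0.17, 0.12 and 0.34 FPKM, reached 2.72, 4.19 and 3.94 FPKM at 28 min, and was at 1.94, 0.64 and 0.90 FPKM at 30 min. The ratio of the group means was 17.2 at 28 min against 0 min, while on the log2(FPKM + 1) scale the difference was 1.88 ± 0.28 (SE, limma adjusted p = 1.6e-05). The fall to 30 min was -1.12 ± 0.28 on that scale (adjusted p = 0.013). Gmnn, the inhibitor of licensing and the most abundant member of the group, was at 10.7, 7.55 and 7.23 FPKM at 0 min, 20.1, 22.1 and 20.6 FPKM at 28 min, and 14.9, 11.9 and 11.01 FPKM at 30 min, again without overlap. It was a DEG at 28 min (log2 fold change 1.07 ± 0.19, limma adjusted p = 0.00012), and without 0 min replicate 3 the value was 0.97, under the DEG limit. Of the origin recognition subunits, Orc6 was a DEG at 28 min with a log2 fold change of 1.35, and Orc1 and Orc2 had 0.97 and 0.66, under the DEG limit. Orc1 was weak, with means of 0.153 FPKM at 0 min and 1.27 FPKM at 28 min, where adding 1 FPKM shrinks the fold change. Its ratio of group means was 8.28, against 3.24 for Orc6 and 1.85 for Orc2. For Orc2, 29.8% of the exon bases are shared with Nif3l1 on the other strand, and the strand used in counting was not given.

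Of the 6 subunits of the MCM2-7 helicase, the ring that unwinds DNA, all 6 were DEGs against 0 min after 18, 24, 26 and 28 min, 5 were after 22 min, 4 after 20 min, and 2 after 16 or 30 min. At 28 min their median log2 fold change was 1.99, the largest of the 9 roles, and the 2 DEGs at 30 min were Mcm3 and Mcm4. From 28 to 30 min, 5 of the 6 fell, and Mcm4 missed the fold limit at -0.98. Mcm3 (chr1:20802968-20820312, minus strand) was at 3.07, 2.84 and 5.66 FPKM at 0 min, between 5.30 and 20.2 FPKM with a median of 16.8 at 16 to 26 min, 24.6, 32.2 and 32.2 FPKM at 28 min, and 16.3, 7.25 and 9.01 FPKM at 30 min. Every 28 min kidney was above every kidney of the other groups. The group mean rose 7.69 times from 0 to 28 min, with a log2 fold change of 2.53 ± 0.36 (SE, limma adjusted p = 7.7e-06), and then fell by 1.40 ± 0.36 on the log2 scale (adjusted p = 0.014). Mcm6, the most abundant subunit (chr1:128331590-128359664, minus strand), was at 14.4, 11.8 and 19.0 FPKM at 0 min, 41.3, 47.8 and 47.3 FPKM at 28 min, and 26.7, 15.7 and 17.1 FPKM at 30 min. Here 1 of 3 kidneys at 30 min was above the 0 min range, and the difference of 30 from 0 min was 0.26 ± 0.24 (limma adjusted p = 0.41). Its fall from 28 to 30 min was -1.18 ± 0.24 (adjusted p = 0.0038). Mcm5, one of the genes with E2F letters, reached 24.2, 31.3 and 28.0 FPKM at 28 min from 4.19, 2.52 and 6.38 FPKM at 0 min.

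**Figure D3:**
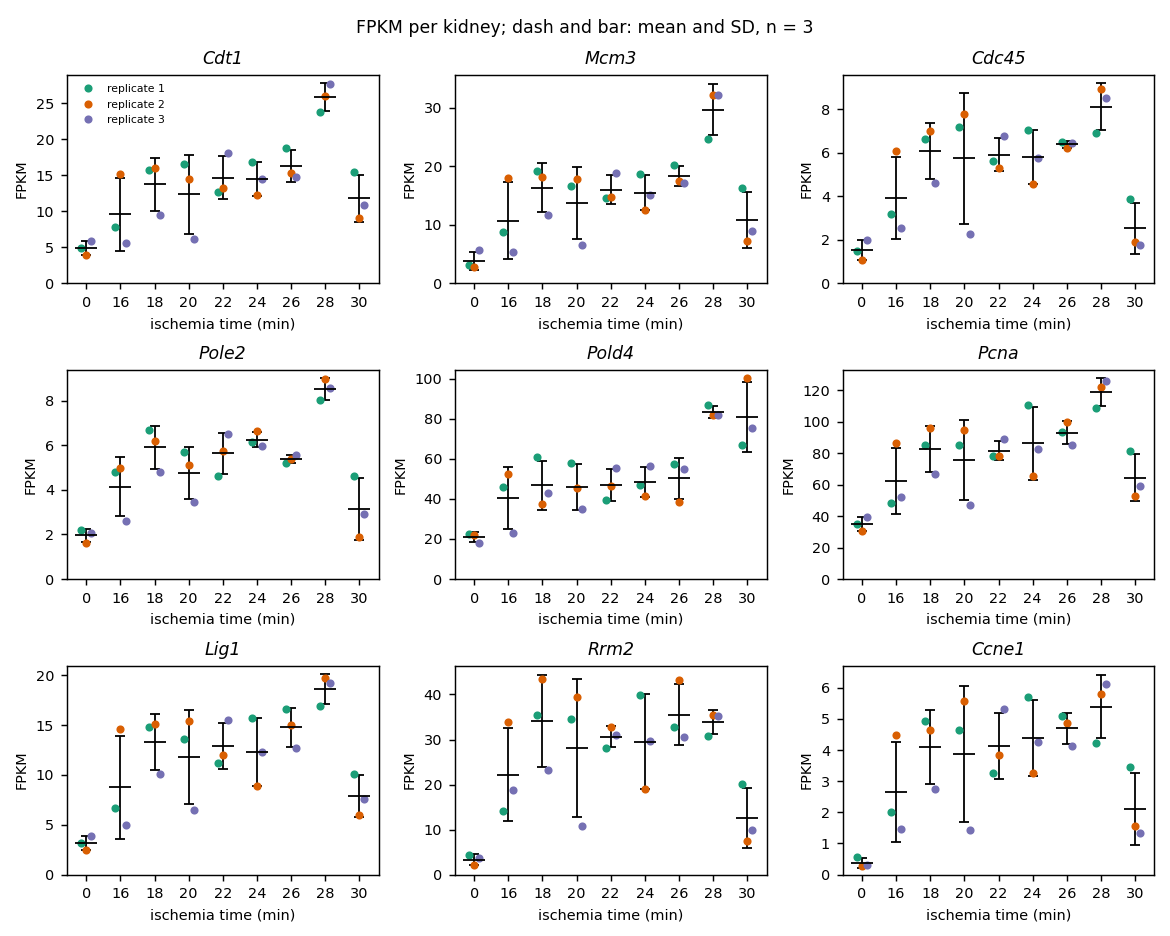
FPKM per kidney against ischemia time in min for 9 replication genes. Points are kidneys, and the dash and bar are the mean and SD of 3 kidneys. In 8 panels there is a drop from 28 to 30 min, and the panel of Pold4 shows 30 min kidneys at 66.7, 100.1 and 75.4 FPKM beside 28 min kidneys at 81.6 to 86.7 FPKM.

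Of the 8 genes of helicase activation, 6 were DEGs at 28 min and 4 fell to 30 min. Cdc45, a core subunit of the active helicase, was at 1.5, 1.08 and 2.0 FPKM at 0 min, between 2.29 and 7.79 FPKM with a median of 6.15 at 16 to 26 min, 6.92, 8.94 and 8.53 FPKM at 28 min, and 3.90, 1.91 and 1.78 FPKM at 30 min. Only 1 of the 30 min kidneys was above the 0 min range, and all were below the 28 min range. The log2 fold change was 1.70 ± 0.30 (SE, limma adjusted p = 8.1e-05) at 28 against 0 min, -1.37 ± 0.30 (adjusted p = 0.0051) at 30 against 28 min, and 0.33 ± 0.30 (adjusted p = 0.39) at 30 against 0 min. Gins2, a GINS subunit, was at 2.48, 2.05 and 4.33 FPKM at 0 min, 15.3, 19.6 and 18.4 FPKM at 28 min, and 9.53, 6.82 and 6.32 FPKM at 30 min, with no overlap of the 3 groups. It was a DEG at 30 min against 0 min (1.01 ± 0.27, limma adjusted p = 0.0038) and also fell from 28 min (-1.11 ± 0.27, adjusted p = 0.011). Of its exon bases, 67.3% are shared with Gse1 on the other strand, so its level cannot be told apart from reads of that gene. Gins4, the most abundant member of the role, was at 9.80, 10.4 and 11.9 FPKM at 0 min and 17.6, 18.6 and 18.8 FPKM at 28 min, a log2 fold change of 0.58 ± 0.11 that was below the DEG limit. Cdc7 and Dbf4, the kinase pair that fires origins, were DEGs at 28 min (1.28 and 1.14), and their differences at 30 against 28 min were -0.49 ± 0.19 and -0.20 ± 0.20 (SE, limma adjusted p = 0.094 and 0.61).

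Among the 12 genes of the polymerases and primase, 8 were DEGs at 28 min, 2 at 30 min, and 3 fell between them. Pole2, the B subunit of polymerase ε, was at 2.18, 1.62 and 2.07 FPKM at 0 min, between 2.62 and 6.70 FPKM with a median of 5.49 at 16 to 26 min, 8.02, 8.99 and 8.58 FPKM at 28 min, and 4.64, 1.89 and 2.93 FPKM at 30 min. All 28 min kidneys were above the other 24, and 30 min replicate 2 was within the 0 min range. Its fall from 28 to 30 min had the lowest adjusted p of all members (-1.22 ± 0.19, limma adjusted p = 0.00059). Pold4, the smallest subunit of polymerase δ (chr19:4231899-4233634, plus strand), had the smallest change of all members from 28 to 30 min. It was at 22.4, 22.2 and 18.1 FPKM at 0 min, between 22.9 and 60.6 FPKM with a median of 46.1 at 16 to 26 min, 86.7, 81.7 and 81.6 FPKM at 28 min, and 66.7, 100.1 and 75.4 FPKM at 30 min. Both late groups were above every other kidney, and they overlapped each other. The log2 fold change against 0 min was 1.85 ± 0.25 at 28 min and 1.85 ± 0.25 at 30 min (SE, limma adjusted p = 4.4e-06 and 3.0e-06), and the difference of 30 from 28 min was 0.00 ± 0.25. Of the exon bases of Pold4, 24.6% are shared with another annotated gene on the same strand. The other polymerase δ subunits Pold1, Pold2 and Pold3 had differences from 28 to 30 min of -0.55, -0.40 and -0.29, and those of the catalytic polymerase ε subunit Pole and of the primase subunit Prim1 were -1.12 and -1.06. Pole3 and Pole4, which also belong to chromatin complexes, had the smallest differences from 0 min of the role at 28 min, 0.59 and 0.39.

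Of the clamp and its loader, 3 of 6 genes were DEGs at 28 min, and 1 fell to 30 min. Pcna, the sliding clamp and with a mean of 77.7 FPKM over 27 kidneys the most abundant member of all, was at 34.8, 30.2 and 39.4 FPKM at 0 min, between 46.8 and 110.7 FPKM with a median of 85.1 at 16 to 26 min, 108.6, 121.9 and 126.0 FPKM at 28 min, and 81.5, 53.0 and 59.0 FPKM at 30 min. Its 0 min kidneys were below all others, and the 30 min kidneys were inside the range of 16 to 26 min. The log2 fold change was 1.69 ± 0.25 at 28 against 0 min (SE, limma adjusted p = 1.2e-05), and the difference of 30 from 28 min was -0.87 ± 0.25 (adjusted p = 0.025), under the fold limit. Pcna has pseudogenes named Pcna-ps1 and Pcna-ps2, and how reads were shared between copies was not given. Rfc4, a subunit of the clamp loader, was at 2.23, 2.48 and 4.12 FPKM at 0 min, 8.73, 10.8 and 9.98 FPKM at 28 min and 5.61, 3.32 and 3.37 FPKM at 30 min, with 2 of the 3 kidneys at 30 min in the 0 min range. For Rfc4, 12.7% of the exon bases are shared with Eif4a2 on the other strand. It was the clamp loader subunit that fell (-1.09 ± 0.25, limma adjusted p = 0.0079). Rfc2 had its highest mean at 18 min and was at 30.9, 23.6 and 22.8 FPKM at 30 min against 28.0, 27.1 and 29.9 FPKM at 0 min, groups that overlap (-0.22 ± 0.12, limma adjusted p = 0.15). Rfc3 was a DEG at 30 min against 0 min (1.08 ± 0.22, adjusted p = 0.00031).

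In the role of single-strand binding, flap and nick processing, Rpa2, Fen1 and Lig1 were DEGs at 28 min, and Lig1 fell to 30 min. Lig1, the ligase that joins Okazaki fragments, was at 3.14, 2.44 and 3.88 FPKM at 0 min, between 4.95 and 16.6 FPKM with a median of 13.2 at 16 to 26 min, 16.9, 19.7 and 19.2 FPKM at 28 min, and 10.1, 5.96 and 7.62 FPKM at 30 min. The 0, 28 and 30 min groups did not overlap. Its log2 fold change was 2.08 ± 0.30 (SE, limma adjusted p = 9.9e-06) and then -1.12 ± 0.30 (adjusted p = 0.018). Rpa1, the large subunit of the single-strand binding protein RPA, was at 18.9, 16.3 and 18.7 FPKM at 0 min, 26.4, 32.3 and 31.5 FPKM at 28 min, and 21.9, 15.6 and 17.6 FPKM at 30 min. Of the 30 min kidneys 1 was above, 1 within and 1 below the 0 min range, with a difference of -0.08 ± 0.13 (limma adjusted p = 0.66). The RPA subunits differed in size of change at 28 min, with log2 fold changes of 0.58 for Rpa1, 1.77 for Rpa2 and 0.65 for Rpa3. For the flap endonuclease Fen1 (1.58), 78.8% of the exon bases are shared with Gm10143 on the opposite strand, which is not in the expression table. Tmem258, also on the opposite strand and in the expression table, shares 130 exon bases with Fen1.

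Of the 4 genes of deoxynucleotide supply, 3 were DEGs at 28 min and 2 fell to 30 min. On the log2(FPKM + 1) scale Rrm2 had the largest fold change of all members at 28 min. By the ratio of group means at 28 against 0 min, the weakly expressed Cdc6 (17.2) and Ccne1 (14.2) were above Rrm2 (10.2). Rrm2, the inducible subunit of ribonucleotide reductase (chr12:24708241-24714146, plus strand), was at 4.28, 2.03 and 3.66 FPKM at 0 min, between 10.7 and 43.5 FPKM with a median of 31.9 at 16 to 26 min, 30.8, 35.5 and 35.2 FPKM at 28 min, and 20.1, 7.53 and 9.92 FPKM at 30 min. The 28 min kidneys were inside the range of 16 to 26 min, and the 30 min kidneys lay between those of 0 and 28 min. Against 0 min the log2 fold change was 2.26 ± 0.41 at 16 min, 2.89 ± 0.41 at 28 min and 1.45 ± 0.41 at 30 min (SE, limma adjusted p = 0.00087, 7.7e-06 and 0.0051), and it fell from 28 to 30 min by 1.44 ± 0.41 (adjusted p = 0.024). Tk1, the thymidine kinase of the salvage pathway (chr11:117815526-117826092, minus strand), was at 8.42, 3.63 and 8.45 FPKM at 0 min, between 16.5 and 50.9 FPKM with a median of 39.3 at 16 to 26 min, 40.3, 41.4 and 40.1 FPKM at 28 min, and 23.3, 8.28 and 12.4 FPKM at 30 min. The kidney of replicate 2 at 30 min was within the 0 min range and all were below the 28 min kidneys. Its fall of -1.50 ± 0.38 from 28 to 30 min (limma adjusted p = 0.014) was the largest among the members on the log2(FPKM + 1) scale. By the ratio of group means at 30 against 28 min, that of Ccne2 was larger (0.297 against 0.36). At 28 min against 0 min Tk1 had 2.35 ± 0.38 (limma adjusted p = 3.7e-05). Rrm1, the large subunit of the same reductase, had 1.34 ± 0.23 at 28 min, and the thymidylate synthase gene Tyms, which has a pseudogene named Tyms-ps, had 0.75 ± 0.15.

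The 4 genes of S phase entry were all DEGs at 28 min, and 3 fell to 30 min. Ccne1, which encodes cyclin E1, was at 0.56, 0.26 and 0.32 FPKM at 0 min, between 1.42 and 5.69 FPKM with a median of 4.36 at 16 to 26 min, 4.24, 5.81 and 6.13 FPKM at 28 min, and 3.44, 1.55 and 1.32 FPKM at 30 min. The 30 min kidneys were above all 0 min kidneys and below all 28 min kidneys. The log2 fold change was 2.13 ± 0.33 (SE, limma adjusted p = 2.1e-05) at 28 against 0 min and -1.06 ± 0.33 (adjusted p = 0.036) at 30 against 28 min. Ccne2, the other cyclin E gene, was at 0.54, 0.72 and 0.71 FPKM at 0 min, 3.98, 5.36 and 4.10 FPKM at 28 min and 2.16, 1.01 and 0.82 FPKM at 30 min, a fall of -1.25 ± 0.27 (adjusted p = 0.0059). Of its exon bases, 17.4% are shared with Ints8 on the other strand. Their kinase partner Cdk2 (chr10:128697939-128705031, minus strand) was at 5.77, 5.47 and 6.04 FPKM at 0 min, 15.6, 15.4 and 16.4 FPKM at 28 min, and 13.6, 11.9 and 13.1 FPKM at 30 min. Its 30 min kidneys were all above the 0 min kidneys, with a difference of 0.93 ± 0.15 (limma adjusted p = 2.0e-05) that missed the fold limit, and -0.23 ± 0.15 (adjusted p = 0.35) from 28 min. E2f1, an activator of these genes, had log2 fold changes of 1.65 ± 0.27 at 28 against 0 min and -1.16 ± 0.27 at 30 against 28 min (adjusted p = 4.9e-05 and 0.0093).

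Chaf1a, the large subunit of the chromatin assembly factor that places histones behind the fork, was at 2.24, 1.21 and 2.93 FPKM at 0 min, between 3.35 and 10.4 FPKM with a median of 8.52 at 16 to 26 min, 10.9, 12.1 and 12.9 FPKM at 28 min and 7.05, 3.83 and 4.05 FPKM at 30 min. The 28 min kidneys were above all others. Its log2 fold change was 1.92 ± 0.30 (SE, limma adjusted p = 2.8e-05) at 28 min and -1.13 ± 0.30 (adjusted p = 0.018) from 28 to 30 min. Of its exon bases, 52.5% are shared with Ubxn6 on the other strand.

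**Figure D4:**
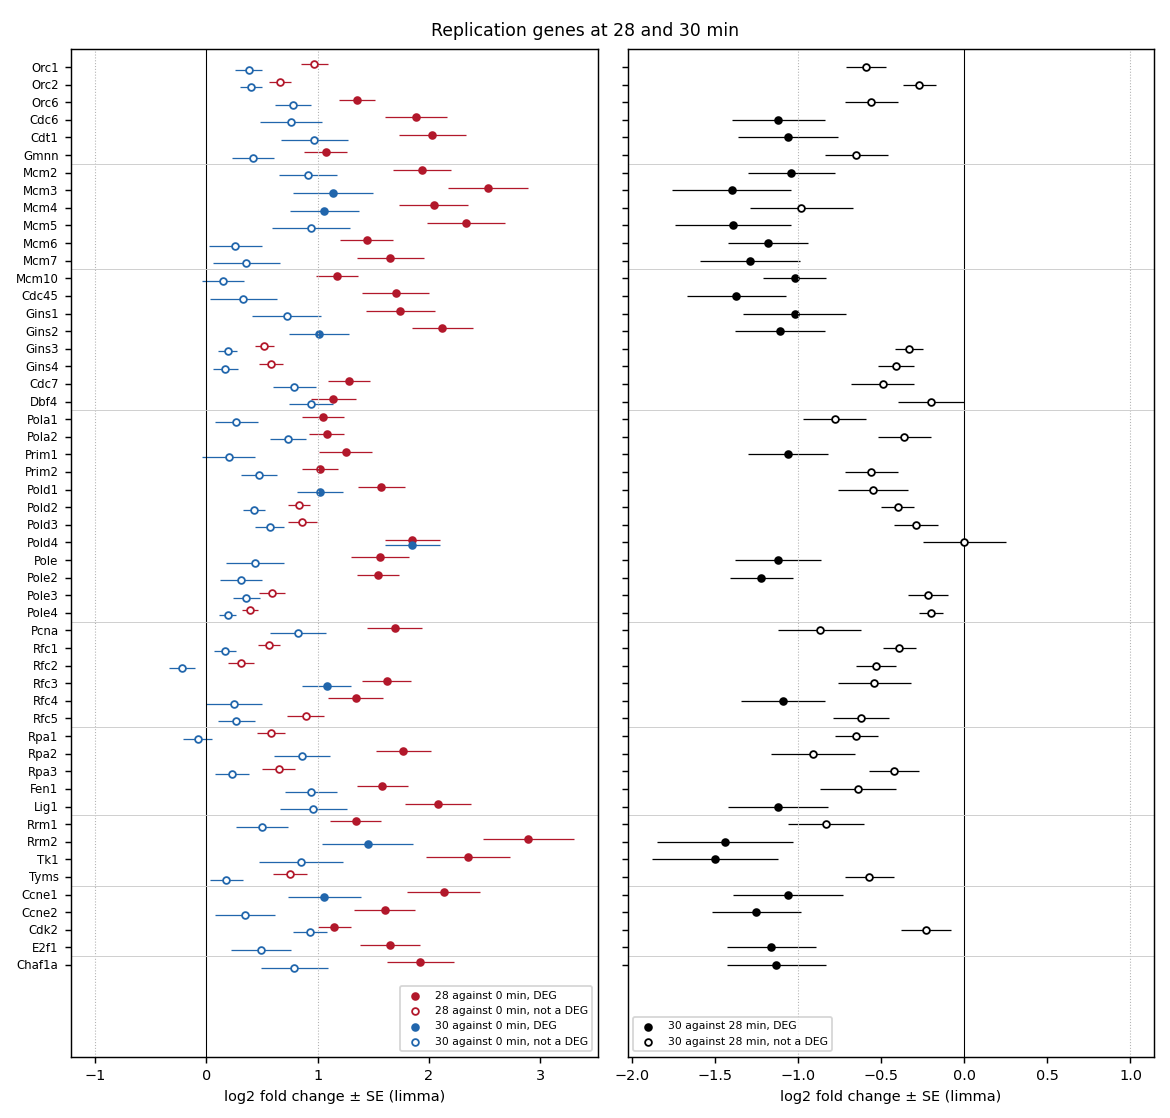
log2 fold change and SE in limma for each of the 52 replication genes, by role from licensing (top) to chromatin assembly (bottom). Left, 28 min (red) and 30 min (blue) against 0 min. Right, 30 against 28 min. Filled points are DEGs, 38 and 8 on the left and 22 on the right, and Pold4 stands at 0.00 on the right.

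The kidneys of a group varied together over the members. In the 20 min group, replicate 3 had the lowest level of its group for 52 of 52 members, against 35.5% of all genes, and the 52 genes summed to 482 FPKM in it beside 849 and 884 FPKM. Without it, 31 members were DEGs at 20 min in place of 16, and without 20 min replicate 2 there were 9. In the 30 min group, replicate 1 was highest for 50 members (36.1% of all genes), with sums of 747, 558 and 561 FPKM in replicates 1, 2 and 3. Without it, 3 members were DEGs at 30 min against 0 min in place of 8, and there were 5 without 0 min replicate 1, 5 without 0 min replicate 2, 14 without 30 min replicate 2 and 16 without 0 min replicate 3. At 16 min, replicate 2 was highest for 49 members (35.3% of all genes) and replicate 3 lowest for 40 (40.1% of all genes). There the count of 8 DEGs became 3 without replicate 2, 15 without replicate 3, 5 without 0 min replicate 1 and 4 without 0 min replicate 2. Markers of injury and of tubule segments varied between the same kidneys. The injured tubule markers summed to 729, 1020 and 70.7 FPKM in the 3 kidneys at 16 min, to 662, 645 and 357 FPKM at 20 min, and to 2520, 3340 and 4920 FPKM at 30 min. The kidneys lowest in replication genes were also lowest in injury markers at 16 and 20 min, and the kidney highest in replication genes at 30 min was the lowest in injury markers. The loop, distal tubule and collecting duct markers summed to 3310, 1580 and 2630 FPKM at 16 min, to 1980, 1520 and 2970 FPKM at 20 min, and to 800, 825 and 2870 FPKM at 30 min. Within their own groups, 20 min replicate 3 was thus the highest and 16 min replicate 2 the lowest in these markers. The part of these markers in the differences between kidneys was not tested.

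Other genes of the cell cycle were followed from lists. Of 41 further replication factors, 4, 10, 19 and 6 were DEGs higher than 0 min after 16, 26, 28 and 30 min, and 5 fell from 28 to 30 min. The shares of all genes were 1.28%, 2.16%, 4.27% and 5.14% higher, and 0.649% lower from 28 to 30 min. Uhrf1, which guides maintenance methylation behind the fork, had the largest change among them, from 1.92, 1.28 and 3.07 FPKM at 0 min to 29.7, 35.9 and 37.7 FPKM at 28 min and 19.6, 7.52 and 9.77 FPKM at 30 min. The change was 3.39 ± 0.43 on the log2 scale at 28 min (SE, limma adjusted p = 2.1e-06) and -1.48 ± 0.43 (adjusted p = 0.027) to 30 min. Chaf1b, the partner of Chaf1a, had 2.70 ± 0.32 and -1.10 ± 0.32, and the chromatin remodeler Hells had 2.39 ± 0.33 and -1.38 ± 0.33 in the same comparisons, all 4 of them DEGs.

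Of the 20 genes of G2 and mitosis, 17 and 18 were DEGs against 0 min after 16 and 18 min, and 18, 9 and 0 were DEGs after 26, 28 and 30 min, all higher. In the order of these 5 times, 1.28%, 1.97%, 2.16%, 4.27% and 5.14% of all genes were called higher. Their mean level in log2(FPKM + 1) was 0.78 ± 0.19 (SD, n = 3) in the 0 min group, and in the 26, 28 and 30 min groups it was 2.54 ± 0.53, 1.86 ± 0.05 and 1.22 ± 0.33. From 26 to 28 min their median log2 fold change was -0.60 with 2 of the 20 called lower, while that of the 52 replication genes was 0.28 with 0 called lower. Of all genes, 1.06% were called lower at this step. From 26 to 30 min, 15 of the 20 fell, against 4 of the 52 and 3.13% of all genes. Whether the 2 lists differ was not tested. Mki67, the proliferation marker, was at 5.93, 12.01 and 5.49 FPKM at 26 min, 2.98, 3.61 and 3.95 FPKM at 28 min, and 2.56, 0.72 and 0.87 FPKM at 30 min, groups that do not overlap. It was a DEG at 26 min (2.20 ± 0.38) and at 28 min (1.32 ± 0.38) against 0 min, but not at 30 min (0.34 ± 0.38, limma adjusted p = 0.49). Top2a, Aurkb and Birc5, which act in chromosome condensation and segregation, were DEGs at 28 min with log2 fold changes of 1.77, 1.72 and 1.57, and at 30 against 26 min they fell by 1.76, 1.46 and 2.04 on the log2 scale.

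**Figure D5:**
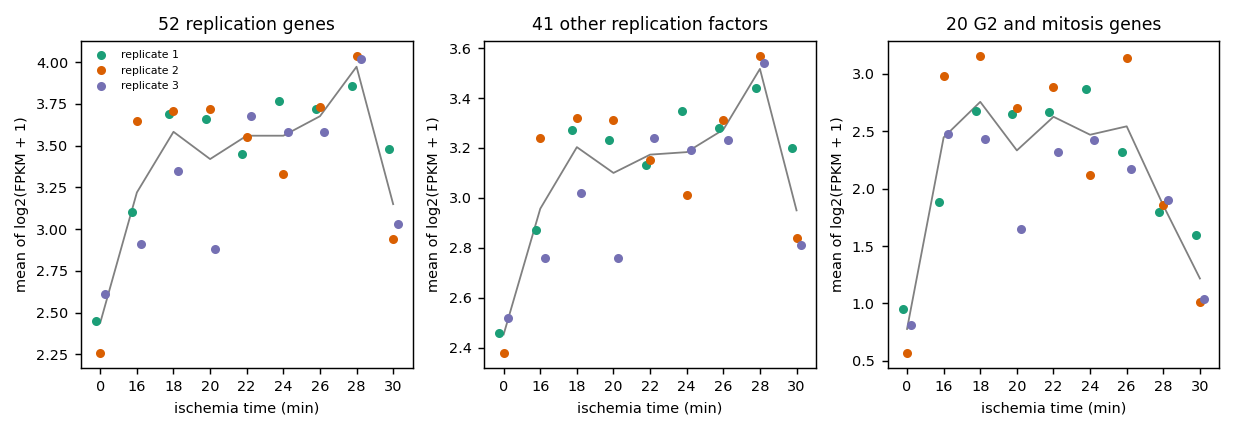
Mean of log2(FPKM + 1) per kidney against ischemia time in min, for the 52 replication genes, 41 other replication factors and 20 genes of G2 and mitosis. Points are kidneys, coloured by replicate number, and the line joins the group means. The replication lists peak at 28 min, at 3.97 for the 52 genes, while the mitotic genes are at 1.86 there after 2.54 at 26 min.

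Among 20 genes that control S phase entry, 6 were DEGs at 28 min against 0 min and 4 at 30 min. Of all genes, 4.27% were called higher and 4.21% lower at 28 min, and 5.14% higher and 5.59% lower at 30 min. Cdkn1a, which encodes the CDK inhibitor p21, was at 8.93, 7.32 and 8.28 FPKM at 0 min, 15.6, 12.9 and 22.8 FPKM at 26 min, 50.3, 40.8 and 48.9 FPKM at 28 min and 62.3, 84.8 and 109.9 FPKM at 30 min. Its groups at 26, 28 and 30 min did not overlap, and it was a DEG at 28 against 26 min (1.44 ± 0.38, limma adjusted p = 0.012), a step at which no replication gene was one. At 30 min it was 3.17 ± 0.38 above 0 min on the log2 scale (adjusted p = 7.2e-07). The S phase and G2 cyclin Ccna2 was at 5.82, 6.95 and 7.17 FPKM at 28 min and 4.71, 1.49 and 1.43 FPKM at 30 min, a fall of -1.19 ± 0.37 (adjusted p = 0.038). The atypical repressors E2f7 and E2f8 had log2 fold changes of 0.76 ± 0.17 and 1.62 ± 0.31 at 28 against 0 min, of which that of E2f8 made it a DEG, and -0.55 ± 0.17 and -0.98 ± 0.31 from 28 to 30 min. Cks1b, a small cofactor of cyclin-dependent kinases, had 2.01 ± 0.25 at 28 min and 1.44 ± 0.25 at 30 min against 0 min, and its difference between these times of -0.57 ± 0.25 (limma adjusted p = 0.15) did not pass.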

How the data were processed

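RNA-Seq of 27 mouse kidneys, 3 mice at each of the 9 clamp times, was analysed as deposited by the authors in FPKM per gene, linear and rounded to 2 decimals. The submitters' processing notes name Bowtie2, RSEM, DESeq2 and GRCm38.p6, with no versions. The annotation, the strand used in counting and the read totals were not given in the sources used here, so no interval for counting error could be set. A relative depth taken from the smallest values above 0 in 5146 low genes lay between 0.981 and 1.048 of the median. Only values close to the lowest of each gene entered it, which keeps this range narrow in advance. It therefore cannot show that the kidneys had equal depth. Replicates were grouped by the ischemia time in the labels.

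After addition of 1 FPKM and log2 transformation the kidneys were quantile normalized, and 18188 genes above 0 FPKM in at least 3 kidneys were fitted in limma 3.58.1 (R 4.3.3) with a mean per ischemia time over all 27 kidneys. The p-values were adjusted by Benjamini-Hochberg over all genes, and the fit was tested on simulated data. There, genes varied independently and the shifts added at 28 min exceeded the DEG limit. Kidneys that vary together over genes, and changes near the limit, are therefore not covered by that check. The neighbouring times, 26, 28 and 30 min, and a slope over 16 to 26 min were compared in the same way. Within each role the text names the member with the highest mean FPKM, the one with the largest change against 0 min, the one with the largest fall from 28 to 30 min, and those moving against their role. In other lists it names Mki67, Ccna2, Cdkn1a, E2f7 and E2f8 and the 3 genes with the largest change at 28 min. The members and lists were chosen with earlier results of these data known, and further members are named where a count or sequence turns on them. Alternatives were a pseudocount of 0.1, no quantile normalization, scaling to a constant sum, a trended variance, a filter at 1 FPKM, no filter, the adjusted p alone, fits of 2 groups only, a replicate block and leaving out each kidney. Positions are those of GENCODE on GRCm38.p6, and promoters those of RefSeq on the same build. Figures were drawn in matplotlib 3.10.9.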

Additional observations from a re-analysis of the deposited data

Results flagged for a closer look

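In 22 replication genes the effect of 30 min of ischemia against 0 min differed from that of 28 min by the DEG limits. The limma test was that of the difference itself, and more members passed its adjusted p alone. In the fit of the 28 and 30 min groups only, no member passed, and the lowest adjusted p of a member was 0.052. The log2 fold changes at 30 against 28 min were -1.12 for Cdc6 and -1.06 for Cdt1 among the licensing genes. In the helicase they were -1.04 for Mcm2, -1.40 for Mcm3, -1.39 for Mcm5, -1.18 for Mcm6 and -1.29 for Mcm7. In its activation they were -1.02 for Mcm10, -1.37 for Cdc45, -1.02 for Gins1 and -1.11 for Gins2. Among the polymerase genes they were -1.06 for Prim1, -1.12 for Pole and -1.22 for Pole2, followed by -1.09 for the clamp loader gene Rfc4 and -1.12 for Lig1. They were -1.44 for Rrm2, -1.50 for Tk1, -1.06 for Ccne1, -1.25 for Ccne2, -1.16 for E2f1 and -1.13 for Chaf1a.

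Between 26 and 30 min the effects differed by the same test and DEG limits for 4 genes. Their log2 fold changes were -1.08 for Cdc45, -1.53 for Rrm2, -1.42 for Tk1 and -1.13 for E2f1, and more members passed the adjusted p alone. The 30 min kidneys enter both sets, so the 2 sets are not independent.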

How the results depend on the processing

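All counts are of DEGs among the 52 members. With a pseudocount of 0.1 the count became 15 at 16 min, 27 at 20 min and 18 at 30 min against 0 min, and 12 at 30 against 26 min. Scaling to a constant sum gave 15, 29, 20 and 10 in these 4 comparisons, and omitting quantile normalization gave 15 at 30 against 0 min. With the adjusted p alone the counts against 0 min were 28, 49, 47, 49, 48 and 49 from 16 to 26 min and 29 after 30 min, and they were 7 at 28 against 26 min, 39 at 30 against 28 min and 28 at 30 against 26 min. Fits of 2 groups only gave 0 at 16 against 0 min and 0 at 30 against 28 min. Leaving out 1 kidney gave, in order of ischemia time against 0 min, 3 to 15, 24 to 29, 9 to 31, 22 to 29, 20 to 30, 27 to 31, 37 to 39 and 3 to 16. It gave 0 at 28 against 26 min, 7 to 26 at 30 against 28 min and 2 to 14 at 30 against 26 min. The cause of these shifts was not tested. The trended variance, both filters and the replicate block moved no count by more than 1.5 times. No pairing by replicate number was seen. Deviations of same-numbered kidneys correlated between -0.42 and 0.47 and those of different-numbered kidneys between -0.52 and 0.52, with a median of -0.01 in both. With the block the counts were 38 at 28 min, 8 at 30 min and 22 at 30 against 28 min. Only named genes that were DEGs were followed through the refits, 18 at 28 against 0 min and 14 at 30 against 28 min. The first set lost 1 of 252 calls and the second lost 46 of 196, with 0 reversed in either. Genes named for large changes in these same data are among them, so kept calls do not speak for the other members. Without read counts, the depth behind weakly expressed members such as Cdc6 and Ccne1 is unknown, and 3 kidneys per group limit the precision.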
